A study of Rattus norvegicus with 12 samples.

Results

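The genes described here are 34 genes of the cell division cycle, followed in developing rat kidney and in a kidney tissue assembled in culture. They are 9 genes of DNA replication (Mcm2 to Mcm7, Pcna, Rrm1 and Tyms), the 2 cyclin E genes (Ccne1 and Ccne2) and 23 genes that act mainly in mitosis. Members were taken by their symbol in the platform annotation, where 14217 genes have a probe set with a single symbol, and the probe set with the highest mean signal over the arrays stands for each gene. All 34 had a probe set that entered the tests.

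RNA was read on 12 Affymetrix arrays. The recombined tissue (n = 2) joined ureteric buds that had formed in vitro and had not branched with metanephric mesenchyme, and was cultured for 6 days; the labels abbreviate these parts as UBs and MM. The ureteric bud is the epithelium that becomes the collecting ducts, and the mesenchyme gives rise to the nephrons. Rat kidneys came from embryonic day 13 (E13; 3 arrays), embryonic day 18 (E18; 4 arrays) and week 4 of life after birth (Wk4; 3 arrays), and the embryonic ones were processed straight after dissection. The labels name no strain, sex, treatment or genotype, and none ties an array to its own animal or culture. P-values here thus speak only of variation among these arrays, part of which may be technical. The design asked whether recombined tissue goes through the normal stages of kidney development, with a 3-fold difference between conditions as its measure.

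Before a cell divides it copies its DNA and then separates the copies. The Mcm proteins form the ring-shaped helicase that opens DNA at origins, PCNA is the sliding clamp that holds the polymerase on DNA, and Rrm1 and Tyms help to make the building blocks of DNA. Cyclin E with its kinase starts S phase. The mitosis genes encode the cyclins and kinases that drive entry into mitosis, the checkpoint that watches over chromosome attachment, the machinery that destroys cyclins at its end, and the motors and bundling proteins of the spindle. In mammalian cells the replication genes are known targets of E2F factors, and many mitosis genes are repressed in resting cells through a promoter element named CHR, often with CCAAT boxes nearby. In the kidney, nephron progenitors and bud tips divide during embryonic life, and most cells of the grown organ are at rest.

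The promoters of the members differ in part along the same line as their roles, and are shown because the members move together. RefSeq windows of the rat genome (build GRCr8), from 250 bases before to 50 bases after each gene's start, matched 28 of the 34 members. Both strands were searched for the CCAAT box (CCAAT), the CHR element (TTTGAA or TTCGAA) and the E2F site (TTTCCCGC, TTTGGCGC, TTTGCCGC or TTTCGCGC). Overlapping matches of 1 motif were counted once and are all capitalised. At least 1 E2F site was present in 6 of 8 replication promoters (75.0%) and in 1 of 19 mitosis promoters (5.3%), that of Cdk1, against 2.1% of all 33469 promoters. A CHR element together with 2 or more CCAAT boxes was present in 10 of 19 mitosis promoters (52.6%) and in 1 of 8 replication promoters (12.5%), against 2.3% of all promoters. A CHR element with or without CCAAT boxes was in 13 of 19 mitosis promoters (68.4%) and 3 of 8 replication promoters (37.5%). Over all promoters that share was 19.7%. The mitosis promoters of Aurka, Bub1 and Melk held none of these motifs. CCAAT boxes alone did not tell the roles apart, with at least 1 in 78.9% of mitosis and 75.0% of replication promoters, against 37.5% of all. These are matches of letters, with no binding measured.

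Printed first are the 3 mitosis promoters with a CHR element and at least 2 CCAAT boxes whose genes differed most between Wk4 and E13. They lie at chr8:93634389-93634688 on the plus strand (Ttk), chr5:142483150-142483449 on the minus strand (Cdca8) and chr1:199952544-199952843 on the minus strand (Mki67). Capitals mark the motifs, and on the opposite strand CCAAT reads ATTGG and TTTGAA reads TTCAAA. In Cdca8 and Mki67 a CHR element and a CCAAT box share 1 base.
Ttk: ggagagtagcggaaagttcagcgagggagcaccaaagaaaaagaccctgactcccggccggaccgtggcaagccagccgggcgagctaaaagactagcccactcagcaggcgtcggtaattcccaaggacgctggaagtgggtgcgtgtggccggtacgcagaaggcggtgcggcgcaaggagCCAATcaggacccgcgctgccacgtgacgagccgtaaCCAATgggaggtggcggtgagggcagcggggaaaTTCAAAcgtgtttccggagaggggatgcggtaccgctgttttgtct
Cdca8: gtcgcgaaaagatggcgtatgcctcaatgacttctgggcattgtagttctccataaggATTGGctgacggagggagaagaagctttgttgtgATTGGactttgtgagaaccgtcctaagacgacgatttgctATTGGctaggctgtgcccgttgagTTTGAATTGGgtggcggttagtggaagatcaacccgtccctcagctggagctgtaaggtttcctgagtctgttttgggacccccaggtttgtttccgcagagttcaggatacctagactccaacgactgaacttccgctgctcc
Mki67: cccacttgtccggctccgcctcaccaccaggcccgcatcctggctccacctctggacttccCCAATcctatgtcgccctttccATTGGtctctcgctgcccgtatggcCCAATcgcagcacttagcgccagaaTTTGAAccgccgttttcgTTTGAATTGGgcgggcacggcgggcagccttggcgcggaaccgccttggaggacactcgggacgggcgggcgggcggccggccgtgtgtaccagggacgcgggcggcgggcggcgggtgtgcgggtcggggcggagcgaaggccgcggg
Cdca8 has 1 CHR element and Mki67 has 2, each among 4 CCAAT boxes, while Ttk has 2 CCAAT boxes upstream of its start and its 1 CHR element just after it.

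The 3 replication promoters with at least 2 E2F sites follow. They lie at chr9:30733697-30733996 on the minus strand (Mcm3), chr12:22163129-22163428 on the minus strand (Mcm7) and chr19:13488563-13488862 on the plus strand (Mcm5). At least 2 E2F sites were present in 3 of 8 replication promoters (37.5%), in 0 of 19 mitosis promoters and in 0.1% of all promoters.
Mcm3: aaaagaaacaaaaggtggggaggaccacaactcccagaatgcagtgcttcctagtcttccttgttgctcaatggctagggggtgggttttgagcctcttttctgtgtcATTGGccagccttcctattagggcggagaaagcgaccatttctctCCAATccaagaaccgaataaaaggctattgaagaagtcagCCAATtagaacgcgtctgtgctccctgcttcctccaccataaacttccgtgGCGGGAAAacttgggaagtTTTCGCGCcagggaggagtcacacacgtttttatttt
Mcm7: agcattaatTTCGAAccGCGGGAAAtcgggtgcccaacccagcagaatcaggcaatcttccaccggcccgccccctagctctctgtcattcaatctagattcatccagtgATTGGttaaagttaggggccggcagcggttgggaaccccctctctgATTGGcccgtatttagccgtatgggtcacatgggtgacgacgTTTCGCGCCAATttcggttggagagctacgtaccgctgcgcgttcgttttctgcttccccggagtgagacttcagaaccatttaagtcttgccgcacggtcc
Mcm5: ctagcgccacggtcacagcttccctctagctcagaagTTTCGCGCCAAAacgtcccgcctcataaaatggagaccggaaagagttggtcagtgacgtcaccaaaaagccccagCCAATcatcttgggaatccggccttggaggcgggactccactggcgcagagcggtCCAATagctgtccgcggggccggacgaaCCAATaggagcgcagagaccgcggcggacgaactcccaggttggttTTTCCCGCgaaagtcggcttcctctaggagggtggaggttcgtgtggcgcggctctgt
All 3 also hold 3 CCAAT boxes, Mcm7 holds a CHR element too, and in Mcm7 a CCAAT box and an E2F site share 1 base. In Mcm5 the E2F match farther from the start runs into another on the opposite strand, with 4 bases shared, and the pair was counted once.

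Levels below are deposited signals, whose mean without the extremes was nearly equal on every array, and a mean is given ± SD. A difference is on the scale of log2(signal + 271) and is given ± SE. A gene is said to have passed when its adjusted p was under 0.05, and to be called when the difference was also at least 3-fold. P-values are limma's with Benjamini-Hochberg adjustment over 22599 probe sets. The median signal per array ran from 799 to 1020, and the small number of arrays limits the precision. The embryonic arrays were split into 2 sets by the sign of their score on the main direction of the variance left after the groups. Such a split crosses the stages by construction, so the sets are no separate sign of a batch. Set 1 held E13 replicate 1 with E18 replicates 1 to 3, and set 2 held E13 replicates 2 and 3 with E18 replicate 4. The direction held 47.7% of that variance.

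The arrays carried RNA of other cell types in unequal amounts. The summed signal of 14 leukocyte markers was 280243 and 151849 on recombined replicates 1 and 2, against 7750 to 12182 at E13, 22146 to 28735 at E18 and 47747 to 54222 at Wk4. At E13 its markers Ptprc, Itgam, Tyrobp and Aif1 lay below the 40th percentile of every array. The summed signal of 11 erythroid markers was 24328 and 27757 in recombined tissue, against 336767 to 420261 at E13, 214556 to 249418 at E18 and 107172 to 142601 at Wk4. Of the 10 erythroid markers tested, 3 passed as lower and 3 as higher at E18 than at E13 (median difference 0.25). Matrix and fibroblast markers (12 genes) summed to 739916 and 818417 in recombined tissue, against 143309 to 189609 at E13, 251455 to 300844 at E18 and 95999 to 145186 at Wk4. Kidney epithelium markers (9 genes) summed to 21722 and 39270 in recombined tissue, against 24871 to 27039 at E13, 79363 to 102371 at E18 and 149359 to 166570 at Wk4, and no marker value was at 0. Gene by gene, 5 of these 9 passed as lower and 3 as higher at Wk4 than at E18 (median difference -0.53). Nephron progenitor markers (7 genes) summed to 30262 and 42420 in recombined tissue, against 52507 to 73440 at E13, 55606 to 69130 at E18 and 42340 to 46847 at Wk4. This sum hides opposite moves: at Wk4 against E13, 6 of the 7 passed as lower and 1 as higher (median difference -2.70). In recombined tissue against Wk4, 5 passed as higher and 1 as lower (median 1.42). Endothelial markers (9 genes) summed to 8469 and 15991 in recombined tissue, against 30679 to 41905 at E13, 42676 to 52993 at E18 and 69421 to 78537 at Wk4. The widest shift was that of 10 mature tubule markers, with 2743 and 5737 in recombined tissue, against 1670 to 3097 at E13, 42634 to 66451 at E18 and 767411 to 878098 at Wk4. The part of these cells in the results below was not tested. Fewer dividing cells and less of these RNAs per cell cannot be told apart in whole tissue.

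**Figure D1:**
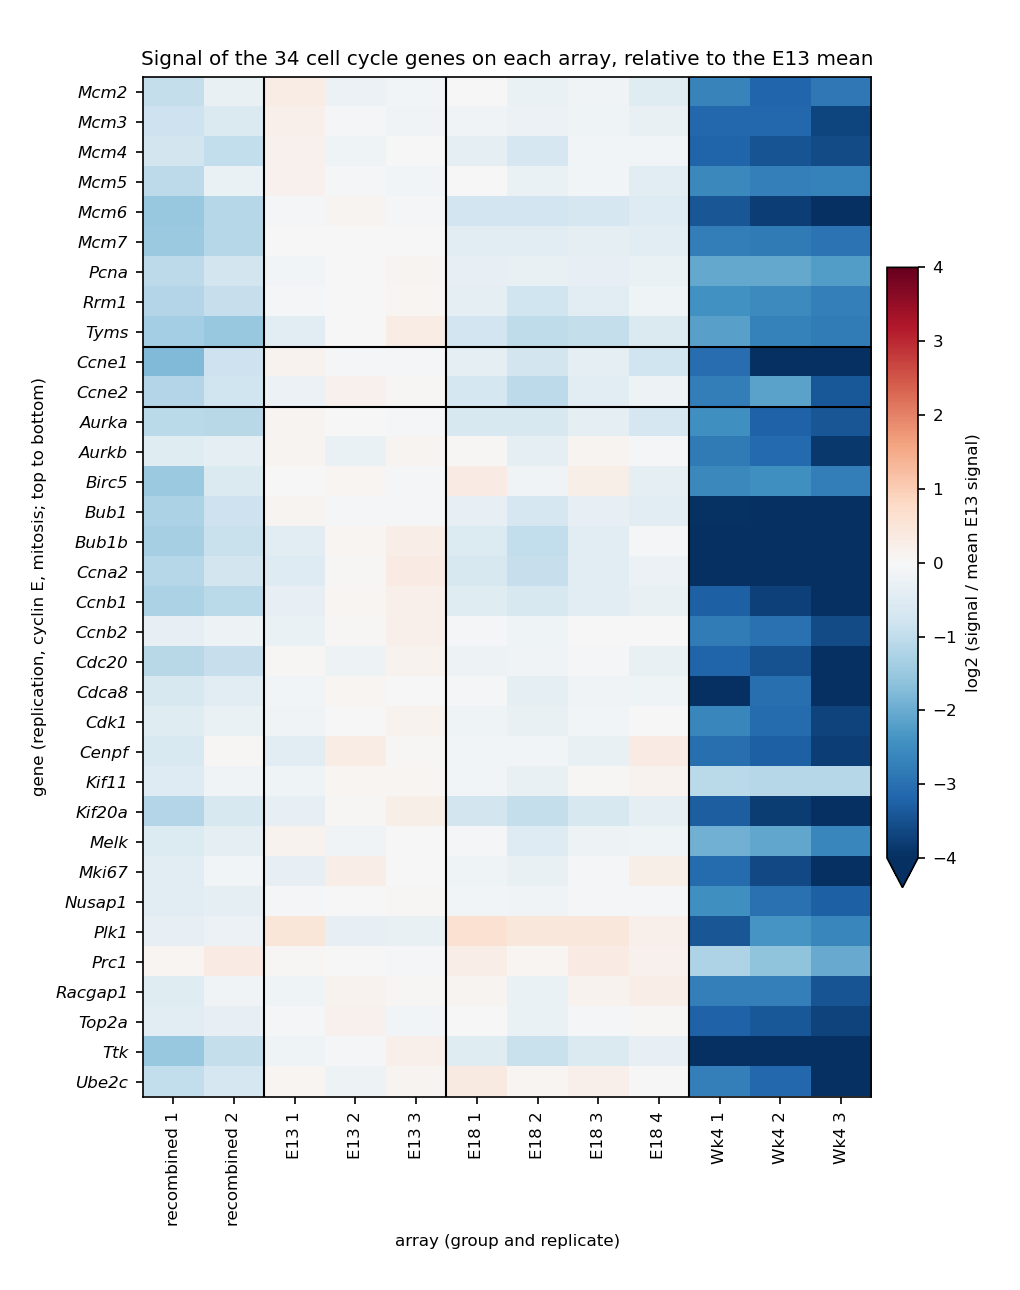
Signal of each of the 34 genes (down, by role) on each of the 12 arrays (across), as log2 of the signal over the gene's mean E13 signal; red is higher, blue lower, and the scale ends at -4. The 3 Wk4 arrays are blue for all genes, with Kif11 palest, and the recombined arrays are pale blue for 33 and 32 of 34 genes.

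The largest difference lay between embryonic and Wk4 kidney. At Wk4, 32 of 34 genes were called lower than at E18 and all 34 passed as lower, with a median difference of -2.85 against -0.12 over all probe sets. Of all probe sets, 5.43% were called lower and 32.6% passed as lower in this comparison, while 5.76% were called higher and 22.2% passed as higher. The 2 genes that passed without being called were Tyms (-1.46 ± 0.18) and Kif11 (-1.02 ± 0.13). Against E13, too, 32 of 34 genes were called lower at Wk4 and all 34 passed, with a median of -2.96 against -0.11. The shares of all probe sets were 8.46% called and 34.4% passed as lower, and 9.39% called and 26.2% passed as higher. The uncalled genes here were Kif11 (-1.07 ± 0.14) and Prc1 (-1.53 ± 0.16). Both comparisons use the same Wk4 arrays.

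Between the embryonic stages the same genes moved little. At E18, 0 of 34 were called against E13 (limma; 0.407% of all probe sets were called lower and 1.93% higher). As lower at E18 passed 7 genes, of which 5 were replication genes (Tyms, Mcm6, Rrm1, Mcm7 and Pcna) and 2 mitosis genes (Kif20a and Aurka), and 0 passed as higher. The share of all probe sets was 7.03% lower and 12.7% higher. The median difference was -0.20 over the members and -0.02 over all probe sets. With the array set as a covariate 4 genes passed, and within either set 0 did, where 1 stage had a single array whose spread came from the other groups. Leaving out 1 array at a time gave 2 to 10 genes. Below 7 by more than 1.5 times were the counts without E13 replicate 2 (3 genes), E13 replicate 3 (2), E18 replicate 1 (4), E18 replicate 2 (3) or E18 replicate 3 (4). Without E13 replicate 1, 1 further gene passed as higher.

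Recombined tissue differed from the embryonic kidneys by under 3-fold for all 34 genes, and from the Wk4 kidney by over 3-fold for most. Against E13, 0 of 34 genes were called, and 21 passed as lower in recombined tissue: all 9 replication genes, both cyclin E genes and 10 of 23 mitosis genes. With each array centred on its median 16 mitosis genes passed. Of all probe sets 0.912% were called lower and 3.95% higher, and 15.2% passed as lower and 15.9% as higher. The members' median difference was -0.82, against -0.00 over all probe sets. Without recombined replicate 1, which had the higher leukocyte sum, 10 genes passed: 6 replication genes (Mcm4, Mcm6, Mcm7, Pcna, Rrm1 and Tyms), 4 mitosis genes (Aurka, Bub1, Ccnb1 and Cdc20) and 0 cyclin E genes. Without recombined replicate 2, 1 gene was called. Against the E13 arrays of set 1 alone 9 replication and 5 mitosis genes passed, and against those of set 2 alone 7 and 9.

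Against E18, 0 of 34 genes were called in recombined tissue and 12 passed as lower, of which 6 were replication genes, 6 mitosis genes and 0 cyclin E genes. All 34 differences were below 0, with a median of -0.45 against -0.00 over all probe sets. The shares of all probe sets were 1.67% called and 15.5% passed as lower, and 2.73% called and 12.7% passed as higher. With each array centred on its median 19 genes passed, and against E18 replicate 4 alone 6. Without recombined replicate 1, 4 genes passed (Mcm4, Mcm7, Pcna and Cdc20).

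Against Wk4, 28 of 34 genes were called higher in recombined tissue and all 34 passed, with a median difference of 2.33 against 0.19 over all probe sets. Called higher were 5 of 9 replication genes, both cyclin E genes and 21 of 23 mitosis genes. Of all probe sets 7.88% were called higher and 32.0% passed as higher, while 7.32% were called lower and 20.9% passed as lower. The recombined arrays are shared by these 3 comparisons.

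The replication helicase showed the 4 groups most clearly through Mcm7 and Mcm6. Mcm7, a subunit of the helicase ring, had signals of 11928 and 14944 in recombined tissue, against 33279, 33506 and 32986 at E13, 24509, 24347, 25213 and 24220 at E18, and 4845, 4690 and 4305 at Wk4. None of these groups overlapped. Its difference was -1.30 ± 0.11 for recombined tissue against E13 (limma adjusted p = 1.18e-06), -0.87 ± 0.11 for recombined tissue against E18 (adjusted p = 3.21e-05) and -0.43 ± 0.09 for E18 against E13 (adjusted p = 0.00425). Mcm6, another subunit, had 10190 and 13114 in recombined tissue, against 27994, 31289 and 27306 at E13, 16801, 17039, 17967 and 20217 at E18, and 2720, 2105 and 1560 at Wk4. Here too no group overlapped another. Mcm6 differed by -1.30 ± 0.18 between recombined tissue and E13 (adjusted p = 8.51e-05) and by -3.63 ± 0.16 between Wk4 and E13, the largest difference among the 9 replication members.

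The other helicase subunits lay closer together before birth. Mcm4 had 10454 and 8626 in recombined tissue, against 19354, 15211 and 17067 at E13, 13517, 10714, 15910 and 16124 at E18, and 1854, 1578 and 1426 at Wk4. The recombined arrays were below every embryonic array, and E18 overlapped E13. Its difference from E13 was -0.83 ± 0.18 in recombined tissue (limma adjusted p = 0.00274) and -0.30 ± 0.15 at E18 (adjusted p = 0.194). Mcm3 had 5885 and 7070 in recombined tissue, against 12091, 9869 and 9617 at E13, 9566, 8978, 9417 and 8649 at E18, and 1202, 1191 and 831 at Wk4. The recombined arrays lay between Wk4 and all embryonic arrays, with a difference from E13 of -0.68 ± 0.16 (adjusted p = 0.00494) that did not pass without recombined replicate 1.

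Mcm2 and Mcm5 split the recombined arrays. Mcm2 had 7889 and 12528 in recombined tissue, against 18672, 12933 and 14154 at E13, 14988, 12615, 13931 and 10840 at E18, and 2388, 1708 and 2100 at Wk4. Mcm5 had 4447 and 7673 in recombined tissue, against 10383, 8577 and 8476 at E13, 9029, 7548, 8425 and 6785 at E18, and 1530, 1362 and 1412 at Wk4. For both genes recombined replicate 2 lay within the E18 range, and recombined replicate 1 lay below every embryonic array. Their differences from E13 were -0.59 ± 0.21 for Mcm2 (limma adjusted p = 0.0476) and -0.62 ± 0.20 for Mcm5 (adjusted p = 0.0273), and neither passed without recombined replicate 1 or without E13 replicate 1.

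The clamp and the precursor enzymes were lower in recombined tissue on both arrays. Pcna, the clamp, had 32126 and 40007 in recombined tissue, against 61972, 66937 and 72364 at E13, 53471, 54766, 53767 and 56064 at E18, and 16406, 16326 and 14175 at Wk4. No group overlapped another, and the differences were -0.90 ± 0.11 from E13 and -0.60 ± 0.11 from E18 (limma adjusted p = 3.9e-05 and 0.000751). At 23.3% of its E13 mean, Pcna kept the largest part of its signal at Wk4 among the replication genes. Rrm1, the large subunit of ribonucleotide reductase, had 10561 and 12526 in recombined tissue, against 22364, 23981 and 24814 at E13, 18389, 13599, 17207 and 20965 at E18, and 4392, 4016 and 3526 at Wk4. Its recombined arrays were below all embryonic arrays, by -1.03 ± 0.16 from E13 (adjusted p = 0.000248).

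Tyms, thymidylate synthase, had 1981 and 1760 in recombined tissue, against 3809, 5088 and 6281 at E13, 2965, 2501, 2592 and 3414 at E18, and 1121, 777 and 735 at Wk4. No groups overlapped. It had the largest difference of any member between E18 and E13 (-0.75 ± 0.18, limma adjusted p = 0.0085), and at 37.0% of E13 the lowest level in recombined tissue. At Wk4 its mean of 877 ± 212 was 30.6% of that at E18.

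The cyclin E genes passed as lower in recombined tissue than at E13, and neither passed between E18 and E13 or between recombined tissue and E18. Ccne1 had 2055 and 3961 in recombined tissue, against 7737, 6719 and 6611 at E13, 5458, 4208, 5445 and 4064 at E18, and 846, 325 and 99.5 at Wk4. Both recombined arrays were below every embryonic array, although replicate 2 was close to the lowest E18 array, and 2 of 3 Wk4 arrays were below their 40th percentile. The difference from E13 was -1.21 ± 0.35 in recombined tissue (limma adjusted p = 0.0169) and -3.54 ± 0.31 at Wk4 (adjusted p = 1.79e-07). Ccne2 had 4411 and 5702 in recombined tissue, against 8417, 11177 and 10157 at E13, 6066, 4762, 7177 and 8651 at E18, and 1466, 2230 and 947 at Wk4. E18 overlapped both E13 and recombined tissue, and the difference of recombined tissue from E13 was -0.94 ± 0.27 (adjusted p = 0.0177). A dimmer second probe set of Ccne2 gave -0.64 for this difference but only -0.53 for Wk4 against E13, where the brighter one gave -2.54.

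**Figure D2:**
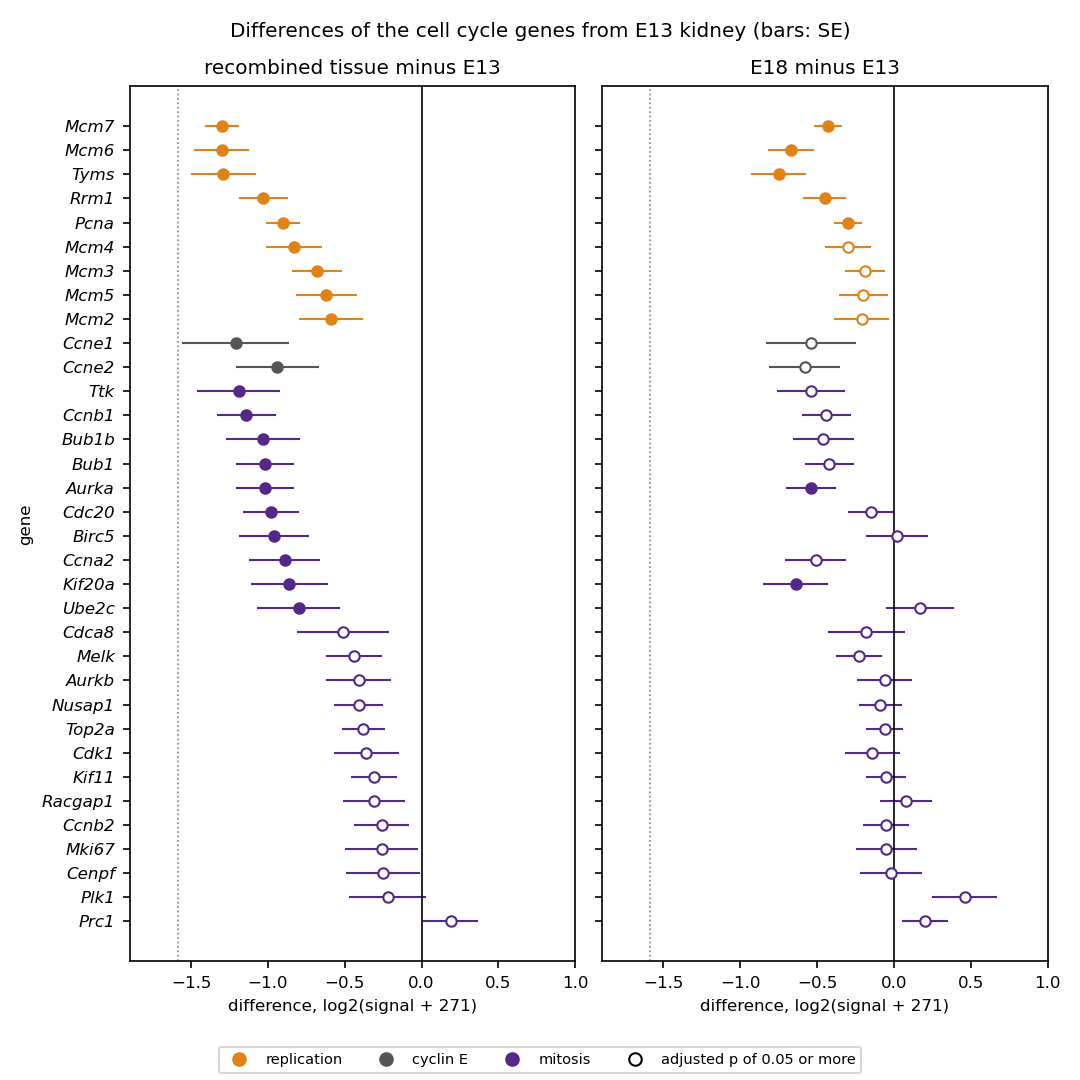
Difference of each gene from E13 in recombined tissue (left) and at E18 (right), on the log2(signal + 271) scale, with bars of 1 SE; filled points have an adjusted p under 0.05, and the dotted line marks a 3-fold decrease. In recombined tissue all 9 replication genes are filled and 10 of 23 mitosis genes, and Prc1 alone lies above 0.

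Among the mitosis genes, Bub1b and Ttk of the spindle checkpoint were among the dimmest at Wk4. Ttk, the kinase also named Mps1, had 4630 and 6726 in recombined tissue, against 11654, 12702 and 15074 at E13, 9443, 7043, 8896 and 10573 at E18, and 334, 218 and 18.3 at Wk4. Its groups did not overlap, and all 3 Wk4 arrays were below their 40th percentile, with a difference from E18 of -4.38 ± 0.22 (limma adjusted p = 8.03e-10). At such dim signals the test shows that Ttk was lower, and the size of its fold, like that of Bub1b, is loosely known. A dimmer second probe set of Ttk gave -2.22 for Wk4 against E18. For recombined tissue against E18 it gave 0.18, where the brighter one gave -0.65 ± 0.25. Bub1b, the pseudokinase BubR1 of the same checkpoint, had 4177 and 5617 in recombined tissue, against 7750, 11025 and 12431 at E13, 7116, 5303, 7741 and 9881 at E18, and 172, 139 and 105 at Wk4. The stages before birth overlapped in part, and its 3 Wk4 arrays, with 1.3% of the E13 mean, were below their 40th percentile too. Bub1, another checkpoint kinase, was at 5.0% of E13 at Wk4 (-3.95 ± 0.17) and at 49.0% in recombined tissue (-1.02 ± 0.19, adjusted p = 0.00115). Ttk and Bub1b differed from E13 by -1.19 ± 0.27 and -1.03 ± 0.24 in recombined tissue (adjusted p = 0.00359 and 0.00452), and neither passed without recombined replicate 1.

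The mitotic cyclins did not move alike in recombined tissue. Ccna2, cyclin A, which acts from S phase to early mitosis, had 11253 and 14975 in recombined tissue, against 17382, 25902 and 31546 at E13, 15960, 13302, 18378 and 21067 at E18, and 806, 749 and 590 at Wk4. It had the largest difference of recombined tissue from Wk4 among the members (3.76 ± 0.23, limma adjusted p = 7.21e-09). Ccnb1, cyclin B1, had 8855 and 9968 in recombined tissue, against 17030, 22389 and 24281 at E13, 15116, 13752, 15723 and 17426 at E18, and 2205, 1599 and 1337 at Wk4. Both its recombined arrays were below every embryonic array, and its second probe set gave a close value (-0.97, against -1.14 ± 0.19 for the brighter one). Ccnb2, cyclin B2, had 12771 and 13904 in recombined tissue, against 13342, 16598 and 18514 at E13, 15416, 14231, 16377 and 15887 at E18, and 2315, 2027 and 1360 at Wk4. Here recombined replicate 2 lay within the E13 range, and the difference of -0.26 ± 0.18 did not pass (adjusted p = 0.312). Cdk1, the kinase that these cyclins switch on, stood at 77.6% of E13 in recombined tissue (-0.36 ± 0.21, adjusted p = 0.224).

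Genes that end mitosis by protein destruction were among the lowest in recombined tissue relative to E18. Cdc20, which activates the anaphase-promoting complex, had 5827 and 6627 in recombined tissue, against 13108, 10908 and 13792 at E13, 11032, 11460, 12317 and 10281 at E18, and 1376, 1134 and 751 at Wk4. The recombined arrays were below all embryonic ones (-0.83 ± 0.17 from E18, limma adjusted p = 0.00234). Its 5 probe sets differed: a bright second one gave -0.93 for recombined tissue against E13, and of 3 dim ones 2 gave 0.20 and 0.42. Ube2c, the ubiquitin-conjugating enzyme of that complex, had 9270 and 11726 in recombined tissue, against 19530, 16038 and 19873 at E13, 23664, 19487, 21098 and 18735 at E18, and 2785, 2091 and 991 at Wk4. It differed by -0.97 ± 0.25 from E18 (adjusted p = 0.0106) and by -0.80 ± 0.27 from E13 (adjusted p = 0.0338), and neither passed without recombined replicate 1, while Cdc20 passed in both.

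The chromosomal passenger complex, which corrects chromosome attachment and acts again in cytokinesis, is covered by 3 members. Birc5, survivin, had 1982 and 3749 in recombined tissue, against 5577, 5865 and 5335 at E13, 7091, 5100, 6567 and 4389 at E18, and 933, 1014 and 821 at Wk4. Both recombined arrays were below the embryonic arrays, and replicate 1 was the lower by far. Birc5 had the largest difference of recombined tissue from E18 (-0.99 ± 0.22, limma adjusted p = 0.00403), and neither this difference nor that from E13 (-0.96 ± 0.23) passed without recombined replicate 1. Its partners Aurkb, the kinase (-0.41 ± 0.21, adjusted p = 0.169), and Cdca8, borealin (-0.51 ± 0.30, adjusted p = 0.216), did not pass against E13. Cdca8 was at 5.4% of E13 at Wk4, with signals of 97.5, 635 and 102.

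Aurka, the kinase of the spindle poles, had 2944 and 2834 in recombined tissue, against 6607, 6097 and 5780 at E13, 3967, 3962, 4835 and 3904 at E18, and 1121, 660 and 572 at Wk4. None of its groups overlapped (-1.02 ± 0.19 for recombined tissue and -0.54 ± 0.16 for E18 against E13, limma adjusted p = 0.00108 and 0.0307). Plk1, a kinase of mitotic entry, was ordered differently in the embryonic stages, with 5353 and 5635 in recombined tissue, against 9214, 5349 and 5382 at E13, 10241, 9109, 9094 and 7634 at E18, and 614, 1288 and 1088 at Wk4. At E13 its 1 array of set 1 was at 9214 and the 2 arrays of set 2 were at 5349 and 5382. Plk1 had the largest positive difference of a member between E18 and E13 (0.46 ± 0.21), which did not pass (adjusted p = 0.143). Melk, another kinase of dividing cells, differed by -0.44 ± 0.18 between recombined tissue and E13 (adjusted p = 0.082) and kept 22.3% of its E13 signal at Wk4.

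The motors and bundling proteins of the spindle held both ends of the range. Kif20a, a kinesin of cytokinesis, had 5612 and 8123 in recombined tissue, against 10031, 13126 and 14771 at E13, 7651, 6542, 8057 and 9761 at E18, and 1292, 916 and 586 at Wk4. Every E18 array was below every E13 array (-0.64 ± 0.21, limma adjusted p = 0.0429), and the recombined arrays overlapped E18. Kif11, the kinesin that pushes spindle poles apart, had 6841 and 8759 in recombined tissue, against 8648, 10252 and 10209 at E13, 9013, 7845, 9993 and 10749 at E18, and 4559, 4412 and 4418 at Wk4. With 46.0% of its E13 mean it kept the most signal at Wk4 of all members, and its dimmer probe set differed less still (-0.64, against -1.07 ± 0.14 for the brighter one). Prc1, which bundles the microtubules of the central spindle, had 9444 and 11176 in recombined tissue, against 9228, 8957 and 8654 at E13, 10860, 9362, 11119 and 10052 at E18, and 3840, 2948 and 2201 at Wk4. It was the 1 member with a higher mean in recombined tissue than at E13 (115.2%), by a difference that did not pass (0.19 ± 0.18, adjusted p = 0.446).

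Racgap1, a regulator of cytokinesis, and Nusap1, a spindle protein, differed from E13 by -0.31 ± 0.20 and -0.41 ± 0.16 in recombined tissue (limma adjusted p = 0.282 and 0.0727). A second probe set gave 0.24 for Racgap1 and -0.40 for Nusap1. Their levels at Wk4 were 13.1% and 13.7% of E13.

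Mki67, Top2a and Cenpf, much used as marks of dividing cells, had 76.5% to 84.3% of their E13 levels in recombined tissue, and none passed. Mki67, which coats mitotic chromosomes, had 14783 and 18802 in recombined tissue, against 16282, 24453 and 19979 at E13, 18084, 16600, 19041 and 23876 at E18, and 2383, 1646 and 1141 at Wk4. Only recombined replicate 1 was below the embryonic range (-0.26 ± 0.24 from E13, limma adjusted p = 0.458). Cenpf, a kinetochore protein, had 6894 and 10785 in recombined tissue, against 7842, 12881 and 10735 at E13, 9767, 9815, 8478 and 13081 at E18, and 1292, 1083 and 779 at Wk4. Its recombined mean was 84.3% of E13 (-0.25 ± 0.24, adjusted p = 0.493). Top2a, the topoisomerase that untangles chromosomes, was at 76.5% (-0.38 ± 0.14, adjusted p = 0.0561). At Wk4 Mki67 stood at 8.5% and Top2a at 9.3% of E13.

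Set side by side, the replication genes were lower than the mitosis genes in recombined tissue. Their median level was 53.8% of E13 in recombined tissue (37.0% for Tyms to 66.9% for Mcm2), and that of the mitosis genes 72.6% (43.2% for Ttk to 115.2% for Prc1). At E18 the medians were 81.3% for replication and 93.5% for mitosis genes. At Wk4 the replication median was the higher, with 13.9% for replication genes (7.4% for Mcm6 to 23.3% for Pcna) and 10.6% for mitosis genes (1.3% for Bub1b to 46.0% for Kif11). The ranges of the roles overlapped in each group.

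The same could be read on each array as the replication median minus the mitosis median of the differences from the E13 mean. This gap was -0.49 and -0.52 in recombined tissue, against 0.09, -0.05 and -0.07 at E13, -0.24, -0.17, -0.25 and -0.35 at E18, and 0.23, 0.17 and 0.80 at Wk4. Both recombined arrays were below all others, and every E18 array was below every E13 array. It averaged -0.51 ± 0.02 in recombined tissue (SD, n = 2), -0.01 ± 0.09 at E13 (n = 3), -0.25 ± 0.07 at E18 (n = 4) and 0.40 ± 0.35 at Wk4 (n = 3). Although recombined replicate 1 was the lower for both roles (-1.05 and -0.56, against -0.91 and -0.38 on replicate 2), the gap was nearly equal on both arrays. The gap was also taken per comparison, as the replication median of the genes' differences minus the mitosis median. In this form it was 0.56 for Wk4 against E18, and 0.24 with a pseudocount 4 times as large. For Wk4 against E13 it was 0.29, and 0.06 without Wk4 replicate 3, the array whose own gap was widest. No test was made of the gap in either form, since the members were chosen with results of these arrays known.

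**Figure D3:**
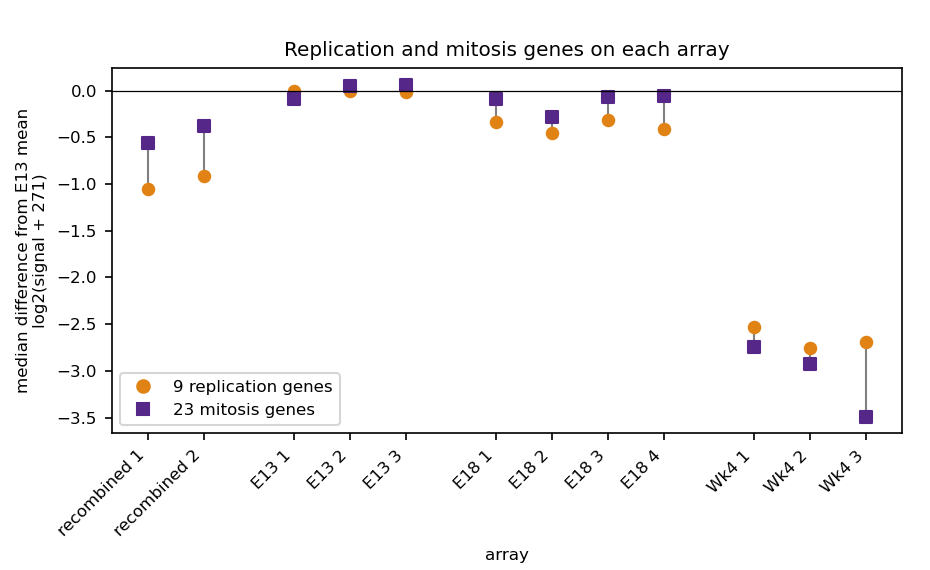
Median difference from the E13 mean of the 9 replication genes (circles) and the 23 mitosis genes (squares) on each array, on the log2(signal + 271) scale, joined by a line. The circle lies about 0.5 below the square on both recombined arrays, below it on all 4 E18 arrays, and above it on all 3 Wk4 arrays.

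**Figure D4:**
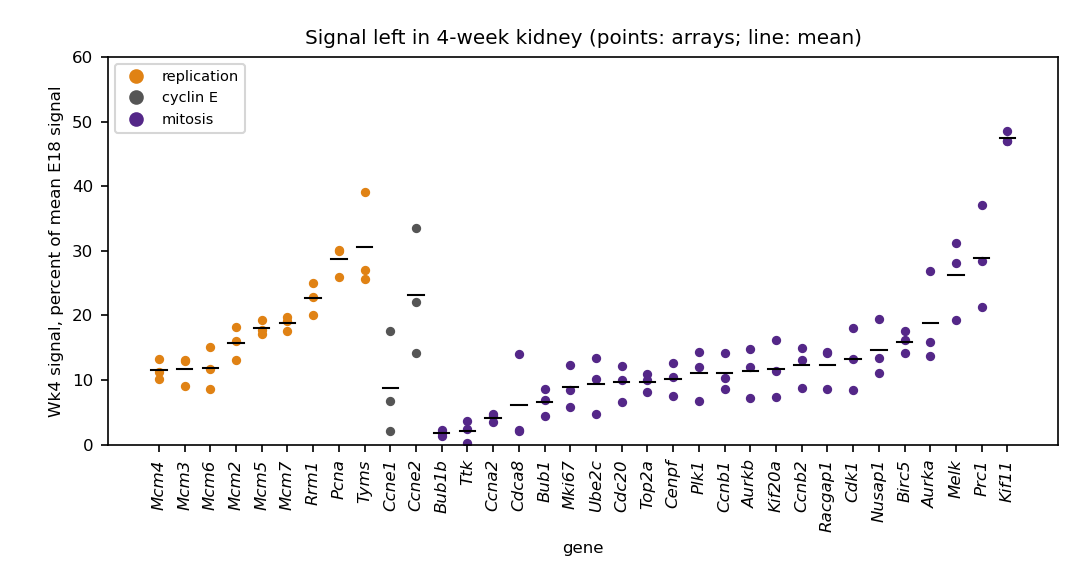
Signal on each of the 3 Wk4 arrays as a percent of the gene's mean E18 signal (points, with their mean as a line), ordered by mean within replication, cyclin E and mitosis genes. The means run from 1.8% for Bub1b to 47.5% for Kif11, and the replication genes from 11.5% to 30.6%.

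Further genes of DNA replication on the array were mostly lower in recombined tissue and at Wk4, too. Of 41 measured, such as subunits of the origin recognition complex, polymerases and clamp loaders, 28 passed as lower in recombined tissue than at E13 and 0 as higher, with a median of -0.68. Without recombined replicate 1, 14 passed. Of all probe sets, 15.2% passed as lower in recombined tissue than at E13, and 7.03% at E18 than at E13. At Wk4 32.6% of them passed as lower than at E18 and 5.43% were called lower. At E18, 7 passed as lower than at E13 and 0 as higher (median -0.30; 3 without E13 replicate 2, and 0 without E13 replicate 3 or within either array set), and at Wk4 38 passed as lower than at E18 and 24 were called (median -1.77). Lowest in recombined tissue was Rfc4, a clamp loader subunit, with 4135 and 5534, against 12703, 13601 and 15464 at E13, 9639, 9409, 9877 and 10560 at E18, and 1868, 1633 and 1907 at Wk4 (-1.48 ± 0.14 from E13, limma adjusted p = 3.73e-06). Dut, which keeps uracil out of DNA, had 13576 and 13041 in recombined tissue, against 33950, 30602 and 37570 at E13, 35690, 31959, 38326 and 36078 at E18, and 16137, 14876 and 16403 at Wk4. Both recombined arrays were thus below even the Wk4 arrays for Dut (-0.24 ± 0.11, adjusted p = 0.0873), and -1.33 ± 0.11 from E13 (adjusted p = 1.08e-06). Timeless, of the replication fork, differed by -1.33 ± 0.32 from E13 but did not pass without recombined replicate 1. The replication genes that differed most between Wk4 and E13 were Cdt1 (-3.89 ± 0.18), which loads the helicase, Uhrf1 (-3.84 ± 0.22), which carries DNA methylation through replication, and Chaf1a (-3.72 ± 0.23), which places histones on new DNA.

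Of 52 further genes of mitosis, 27 passed as lower in recombined tissue than at E13 and 0 as higher, with a median of -0.60. Without recombined replicate 1, 12 passed, and against set 1 alone 8. At E18 3 passed as lower than at E13 and 2 as higher (median -0.23), counts that ran from 1 to 8 and from 1 to 2 when 1 array was left out. With all arrays, these shares were below the 7.03% and 12.7% of all probe sets. At Wk4 50 passed as lower than at E18 and 44 were called (median -2.58), against 32.6% and 5.43% of all probe sets. In recombined tissue 15.2% of all probe sets passed as lower than at E13. Zwint, a kinetochore gene, had 32987 and 37368 in recombined tissue, against 78257, 71901 and 82259 at E13, 60005, 58871, 59918 and 57188 at E18, and 18034, 18227 and 19031 at Wk4, with no overlap between groups (-1.13 ± 0.09 from E13, limma adjusted p = 8.69e-07). Pbk, a mitotic kinase (-1.33 ± 0.22), and Kif18a, a kinesin of chromosome alignment (-1.23 ± 0.26), differed most from E13 in recombined tissue. Cdc25b, a phosphatase that starts mitosis, ran against the list between the embryonic stages, with 4338, 3340, 4089 and 4279 at E18, against 1555, 1559 and 1647 at E13 (1.20 ± 0.15, adjusted p = 3.66e-05). At Wk4 Kif15 (-3.98 ± 0.23), Cdca2 (-3.90 ± 0.36) and Spag5 (-3.69 ± 0.22), all of the spindle or chromosomes, differed most from E13. Against E13, the replication and mitosis medians of recombined tissue were -0.68 and -0.60 in the further lists, and -0.90 and -0.44 over the members. Against E18 both further lists had -0.39, and the members had -0.54 and -0.35. In recombined tissue the gap between the roles was thus small or absent in the further lists. At Wk4 it was present in them, with replication and mitosis medians of -1.77 and -2.58 against E18, and -2.07 and -2.63 against E13. The members had -2.35 and -2.91 against E18, and -2.73 and -3.02 against E13. These lists were written with earlier results of the same arrays known, and their counts are descriptions.

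The D cyclins, which carry growth signals to the cycle, parted from each other with age. Ccnd1 had 15328 and 13090 in recombined tissue, against 7801, 17712 and 16290 at E13, 32137, 27435, 39491 and 51815 at E18, and 36853, 30702 and 30901 at Wk4. It was higher at E18 than at E13 (1.46 ± 0.25, limma adjusted p = 0.000644) and at Wk4 than at E13 (1.30 ± 0.26), when the members were low. In recombined tissue it differed from E13 by 0.11 ± 0.29 (adjusted p = 0.823) and from E18 by -1.35. Ccnd2 had 30866 and 23256 in recombined tissue, against 20984, 36056 and 43226 at E13, 15718, 15403, 17355 and 23137 at E18, and 4460, 2304 and 2770 at Wk4. It was lower at Wk4 than at E13 by a difference of -3.27 ± 0.26 (adjusted p = 5.36e-08), and recombined tissue lay in the E13 range. Cdk4, their kinase, had 27230 and 32776 in recombined tissue, against 58683, 47568 and 55110 at E13, 47041, 39879, 46657 and 37172 at E18, and 9250, 7057 and 6726 at Wk4. No groups overlapped for Cdk4, with -0.84 ± 0.15 for recombined tissue against E13 (adjusted p = 0.000887) and -2.77 ± 0.14 for Wk4 against E13.

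Among 20 measured genes of the E2F, pocket protein and Myc families, 8 passed as lower and 3 as higher in recombined tissue than at E13 (median -0.46), and 14 as lower and 2 as higher at Wk4 than at E18. The shares passing as higher were no greater than the 15.9% and 22.2% of all probe sets. As lower passed 15.2% and 32.6% of all probe sets. Without recombined replicate 1, 5 passed as lower and 1 as higher in recombined tissue than at E13. Of the pocket proteins, which hold E2F factors in check, Rbl1 (p107) was lower and Rbl2 (p130) higher at Wk4 than at E13. Rb1, also of this family, had the largest difference of the list between E18 and E13 (1.12) and is not described further. Rbl2 had 3847 and 4739 in recombined tissue, against 1069, 1668 and 1604 at E13, 2497, 2609, 2244 and 2839 at E18, and 4483, 5399 and 6412 at Wk4. Its difference from E13 was 1.74 ± 0.18 at Wk4 (limma adjusted p = 6.94e-07) and 1.42 ± 0.20 in recombined tissue (adjusted p = 8.6e-05), where both arrays were above every embryonic array. Rbl1 differed from E13 by -2.10 ± 0.19 at Wk4 (adjusted p = 1.87e-07) and by -0.35 ± 0.21 in recombined tissue (adjusted p = 0.229). Of the E2F genes, E2f7 (-2.60 ± 0.19) and E2f8 (-1.89 ± 0.21), which repress, differed most between Wk4 and E13, and E2f1, an activator, by -1.04 ± 0.15.

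Mycn, the Myc gene of embryonic progenitors, had 2074 and 3570 in recombined tissue, against 10208, 10945 and 9049 at E13, 8895, 9802, 8554 and 7191 at E18, and 790, 358 and 599 at Wk4. No recombined array came near the embryonic range (-1.78 ± 0.23 from E13, limma adjusted p = 5.32e-05), and Mycn was lower at Wk4 by a difference of -3.63 ± 0.21. Myc itself differed from E13 by 0.43 ± 0.24 in recombined tissue (adjusted p = 0.205) and by -1.27 ± 0.22 at Wk4 (adjusted p = 0.000126). Foxm1 and Mybl2, activators of mitosis genes, differed from E13 by -0.03 ± 0.41 and -0.92 ± 0.18 in recombined tissue (adjusted p = 0.963 and 0.00138) and by -1.84 ± 0.36 and -1.66 ± 0.16 at Wk4. The 2 Foxm1 values in recombined tissue, 1835 and 2647, lay within the E13 values of 3072, 2056 and 1830.

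Several genes that slow the cycle were higher in recombined tissue. Of 12 measured inhibitors and stress genes, 7 passed as higher and 1 as lower than at E13 (median 0.97), and at Wk4 7 passed as higher and 1 as lower than at E18 (median 0.69). Of all probe sets, 15.9% passed as higher and 15.2% as lower in recombined tissue than at E13. Between Wk4 and E18 these shares were 22.2% and 32.6%. Cdkn1a, the inhibitor p21, had 4482 and 4065 in recombined tissue, against 1691, 1468 and 1851 at E13, 2757, 2408, 2764 and 1618 at E18, and 7377, 9410 and 7202 at Wk4. Recombined tissue lay between the embryonic and the Wk4 arrays, with differences from E13 of 1.23 ± 0.20 in recombined tissue and 2.09 ± 0.18 at Wk4 (limma adjusted p = 0.000377 and 1.48e-07). Ccng1, a target of p53, had 15993 and 14343 in recombined tissue, against 4396, 4220 and 4544 at E13, 5356, 5834, 5023 and 6494 at E18, and 14689, 14355 and 11567 at Wk4, so that recombined tissue was at the Wk4 level (1.73 ± 0.14 from E13, adjusted p = 7.75e-07). Gadd45g, a stress gene, had 6389 and 3216 in recombined tissue, against 809, 649 and 688 at E13, 946, 1093, 999 and 1038 at E18, and 2824, 2639 and 2468 at Wk4 (2.29 ± 0.22 from E13, adjusted p = 3.8e-06). Its relative Gadd45a differed there by 0.35 ± 0.21 (adjusted p = 0.237), and was higher than at E13 by 1.62 ± 0.17 at E18 and by 2.22 ± 0.19 at Wk4.

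Cdkn1c, the inhibitor p57, ran the other way. It had 20124 and 28620 in recombined tissue, against 82797, 94584 and 101751 at E13, 88400, 92222, 91101 and 98306 at E18, and 16788, 10586 and 10314 at Wk4. Both recombined arrays were far below every embryonic array and above every Wk4 array. Its difference from E13 was -1.94 ± 0.19 in recombined tissue (limma adjusted p = 3.49e-06) and -2.89 ± 0.17 at Wk4 (adjusted p = 1.7e-09), while E18 and E13 differed by -0.00 ± 0.16. Cdkn1b, the inhibitor p27, was higher than at E13 by 0.67 ± 0.16 at Wk4 and by 0.56 ± 0.17 in recombined tissue (adjusted p = 0.00179 and 0.0229).

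**Figure D5:**
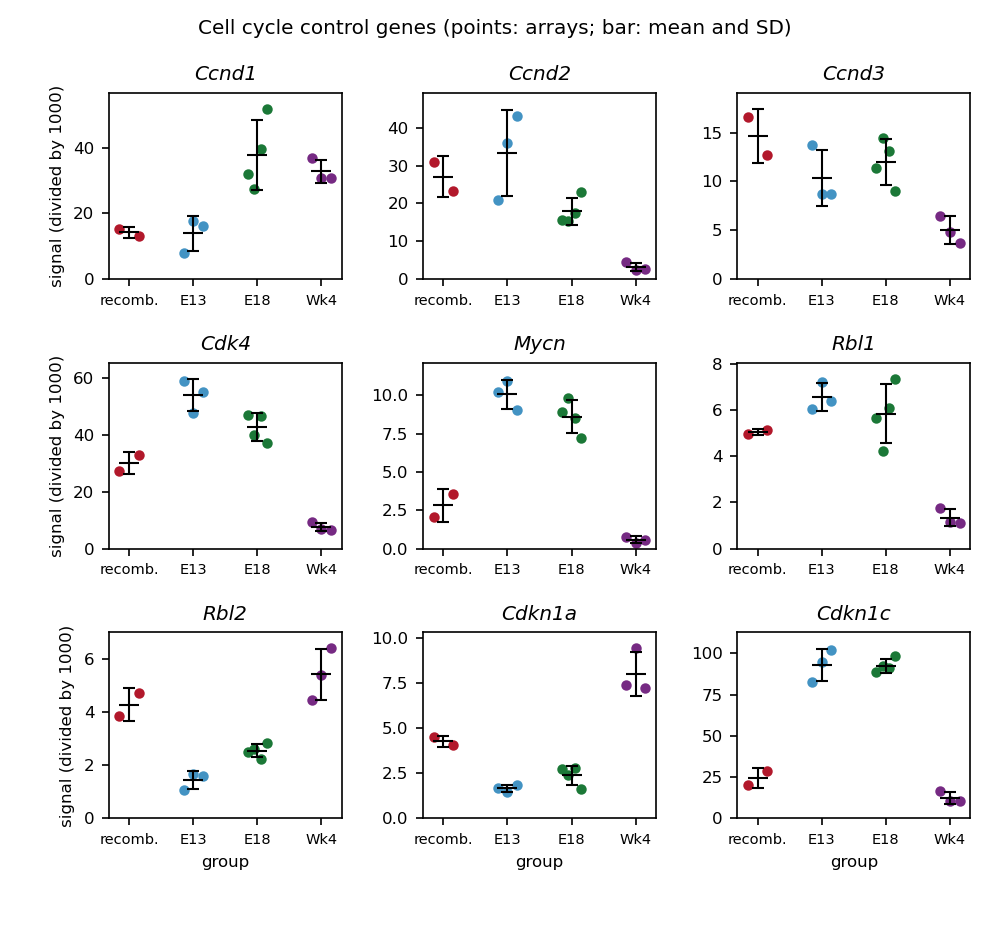
Deposited signal, scaled down as the axis states, of 9 cell cycle control genes on each array (points), with the group mean and SD (bar), for recombined tissue, E13, E18 and Wk4. Ccnd1 is high at E18 and Wk4, Cdk4, Mycn and Cdkn1c are lower in recombined tissue than in both embryonic groups, and Rbl2 and Cdkn1a are higher in it.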

How the data were processed

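Total RNA of 12 samples was labelled as biotinylated cRNA and hybridised to Affymetrix rat arrays, per the labels' protocols. The deposited values are probe set intensities on a linear scale, made by the authors; the submitters' processing notes name GCOS for this, with no version given in the sources used here. Tested on the files, the trimmed mean without the lowest and highest 2% was 2500.6 to 2500.9 on every array, as a common scaling gives. Here, signals became log2(signal + 271), 271 being their 25th percentile. Of 31042 probe sets (57 controls left out), 22599 were tested, those exceeding the 40th percentile of 2 or more arrays, with limma 3.58.1 in R 4.3.3 (lmFit and eBayes with an intensity trend, 8 residual degrees of freedom), in 1 fit of 4 groups, with Benjamini-Hochberg adjustment. Calls needed adjusted p under 0.05 and at least 3-fold. The procedure was tested on simulated data. By a written rule, genes described were all 9 replication genes and some members per comparison. These were the 4 with the largest and the 3 with the smallest absolute difference. The rule also allowed the 3 genes with the largest difference in each further list per comparison, and D cyclins, inhibitors and E2f genes. Only a part of the genes allowed from these lists is described, and no rule set which. The other genes named were chosen with their values seen. The members and lists were chosen with earlier results of these data known. Alternatives covered the pseudocount, scaling, filter, probe set choice, model, array sets and left-out arrays. Promoters came from RefSeq (GRCr8); the promoters of Mcm4, Ccne2, Aurkb, Ccna2, Racgap1 and Ube2c were not used here.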

Additional observations from a re-analysis of the deposited data

Results flagged for a closer look

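Aurka, the spindle pole kinase, stood apart on 1 E18 array. Its signal was 4835 on E18 replicate 3 and 3904 to 3967 on the other E18 arrays. The gap to the nearest array was thus about 0.9 of the group's range. Only the E18 group is large enough for this check, which singles out about 1 in 20 groups by chance, and it singled out 1 of 34 genes here.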

How the results depend on the processing

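The members that were called between Wk4 and the other groups varied least: 31 to 33 against E18, 32 to 33 against E13 and 24 to 31 for recombined tissue against Wk4 when 1 array was left out. Between E18 and E13, where 7 members passed, the count was 4 without the intensity trend, 11 with only the arrays compared, 4 with the embryonic set as covariate, 0 within set 1, 0 within set 2, and 2 to 10 with 1 array left out. For recombined tissue against E13, 10 members were called with a 2-fold minimum, and leaving out 1 array gave 0 to 1 called and 10 to 23 passing. Against E18 the count passing was 19 with arrays centred on the median, 6 within set 2 and 4 to 15 with 1 array left out. The replication minus mitosis gap, taken per comparison, was -0.38 for E18 against E13 within set 1, in place of -0.20. It was 0.24 for Wk4 against E18 with the larger pseudocount, in place of 0.56. For recombined tissue it was -0.39 against E13 with quantile normalization, in place of -0.45, and -0.27 against E18 with the mean of all probe sets, in place of -0.20. With 1 array left out it ran from -0.52 to -0.39 against E13, from -0.26 to -0.16 against E18 and from -0.86 to -0.38 against Wk4, and for Wk4 against E13 from 0.06 to 0.54. Smc4, a condensin gene, turned to 1.13, in place of -0.10, for recombined tissue against E13 within set 1. The causes of these shifts were not tested. With the replicate block 6 members passed between E18 and E13, 20 between recombined tissue and E13 and 10 between recombined tissue and E18. Each was within 1.5 times the count without the block. Such counts cannot show whether equal replicate numbers link samples, and the labels do not say. Dim signals limit the Wk4 values of Bub1b, Ttk, Cdca8 and Ccne1.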
